A study of Mus musculus with 2 samples.

Results

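The heat shock chaperones of the cytosol and mitochondria were compared between mouse B16F10 melanoma cells that overexpressed NRF3 and cells of the same line that expressed GFP. The set was a list of 45 gene symbols covering the HSP70, HSP110, HSP90, J-domain, small heat shock, BAG and chaperonin families, the mitochondrial chaperones and 2 heat shock factors. The array annotation paired 40 of these with a probe set, out of 19505 named genes, and each of the 40 had 1 probe set. Hspa8, Hsp90ab1, Dnaja1, Dnajb5 and Hsf1 are not analysed here. The genes were taken by symbol, with no threshold on a measured value, from a list drawn up with earlier results of these data known. Both cell populations had been co-transfected with their expression plasmid and a vector for puromycin resistance, selected as stable cells with puromycin, and kept in forskolin for 5 days before RNA extraction. Forskolin activates adenylate cyclase and raises cAMP. All groups therefore carry plasmid DNA, selection and forskolin, and the comparison concerns NRF3 against GFP under forskolin. The labels do not say whether the stable cells were pools or single clones, nor which promoter drove the plasmids. Each group had 1 single-colour Affymetrix array, so no value below has an error, an interval or a p-value, and each difference compares these 2 RNA samples.

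Chaperones of the HSP70 family bind unfolded stretches of protein and release them through cycles of ATP hydrolysis. J-domain proteins bring them substrate and start the hydrolysis. HSP110 and BAG proteins exchange the nucleotide, and HSP90 and the chaperonin ring take over particular clients. Small heat shock proteins hold unfolded protein without ATP. Many of these genes are induced by heat shock factor 1, which binds alternating GAA and TTC units in their promoters. The NRF3 protein (gene Nfe2l3) belongs to the cap'n'collar factors, which bind antioxidant response elements together with small MAF proteins.

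The arrays had a common scale of log2 values with medians of 6.05 for GFP and 6.13 for NRF3 over 28846 rows. A gene was called detected when its brighter value reached 5.89, the median of all values of named probe sets, which 10162 genes did. The floor was set by this rule and says nothing of background. The 5222 control rows with neg in their names had upper quartiles of 7.52 with GFP and 7.85 with NRF3, and values under these cannot be told from background here. Nfe2l3 itself read 6.04 with GFP and 10.15 with NRF3, so the labels and the targeted gene go the same way. The 7 melanocyte marker genes, Tyr, Tyrp1, Dct, Pmel, Mlana, Mitf and Sox10, all read at least 11.67 on both arrays. Of 13 named markers of leukocytes, fibroblasts, endothelium and epithelium, 0 reached the floor, and their highest value was 5.67.

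As a set the heat shock chaperones did not shift in 1 direction. Of the 40 measured, 39 were detected, with a median log2 difference, NRF3 minus GFP, of 0.06 against -0.07 over all 10162 detected genes. A rule of size, at least 1.5-fold, was met by 7 genes higher in the NRF3 cells and 8 lower. These are 17.9% and 20.5% of the detected members, beside 17.0% and 23.6% of all detected genes. The shares of members past the rule were thus close to the background in both directions. At 2-fold the counts were 3 higher and 3 lower, or 7.69% each, beside 6.75% and 11.0% of all detected genes. The rule of size is no test. In RNA from a whole culture, a change in some cells and a smaller change in all of them cannot be told apart. Just inside the 1.5-fold rule lay Tcp1 at -0.63 and Hspa1a at 0.68, and just outside it Dnajb4 at 0.45 and Hspa1b at 0.44. Of the 15 genes past the rule, 11 had both values above the upper quartile of the control rows, 5 of them higher and 6 lower. Hspb8 was detected through the GFP array alone and Hspa1b through the NRF3 array alone. Single genes within the set lay on both sides of 0, and they are described next by family. Each family holds few genes, so its count cannot be set apart from the 17.0% and 23.6% of all detected genes.

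**Figure D1:**
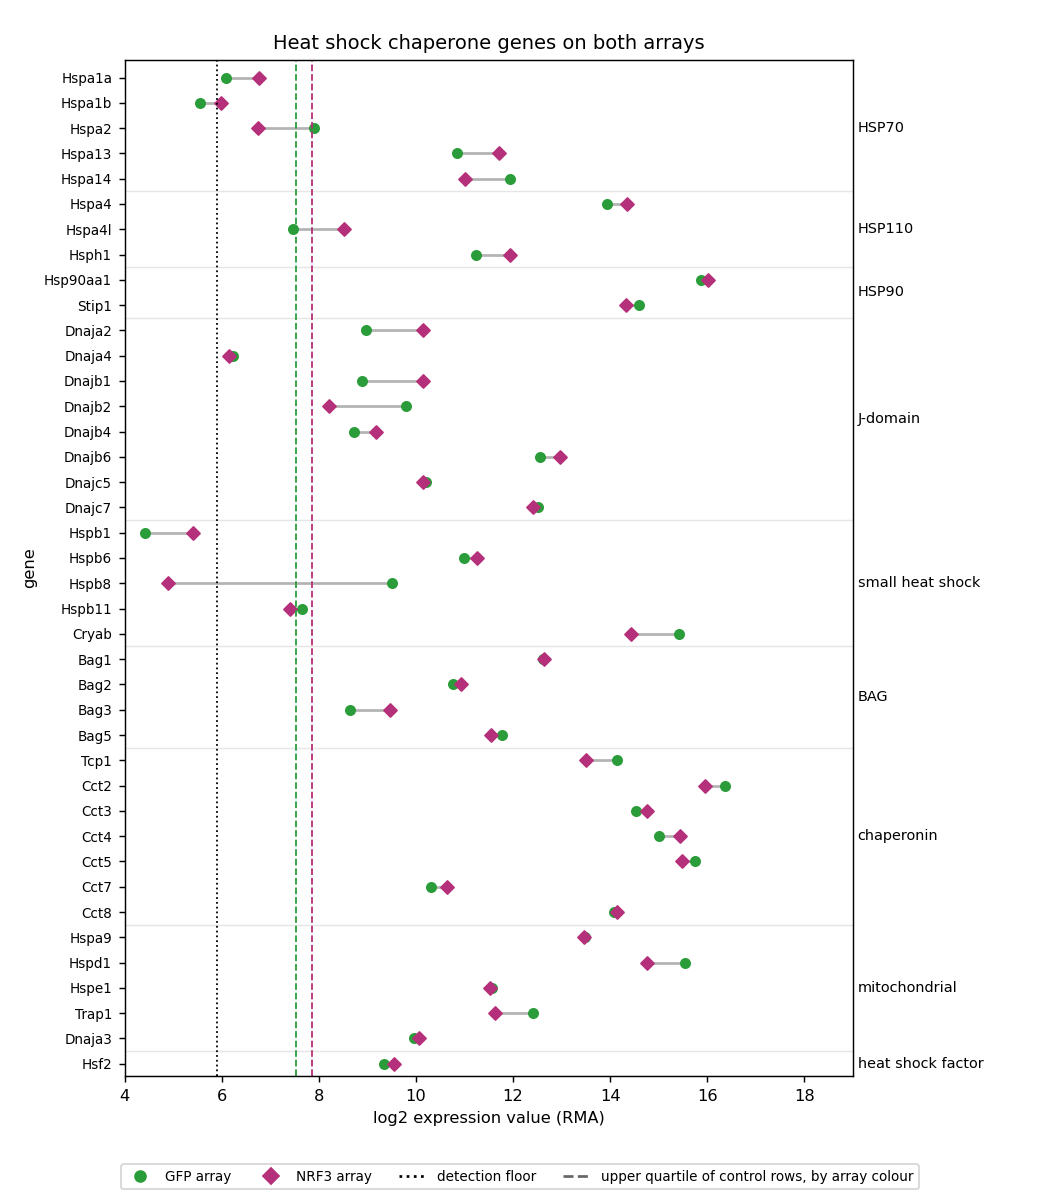
Log2 expression values (RMA, horizontal axis) of the 40 measured heat shock chaperone genes, grouped by class. Circles are the GFP array and diamonds the NRF3 array, 1 array each, the dotted line is the detection floor of 5.89 and the dashed lines are the upper quartiles of the control rows, 7.52 for GFP and 7.85 for NRF3. The pair for Hspb8 is the widest, from 9.50 to 4.88.

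Promoter sequence was read to show which members carry the binding motifs named above. RefSeq promoter windows (build GRCm38.p6, 250 bases before to 50 after each start) matched 36 of the 45 members, with 52 windows. The heat shock element was searched on both strands as its 2-unit forms, GAANNTTC and TTCNNGAA, and as 3 alternating units of GAA and TTC with 2 bases between units, which contains the 2-unit forms. A 2-unit match lay in 17 of the 52 windows, or 32.7%, beside 15.1% of all 32851 windows. A 3-unit match lay in 6 windows, or 11.5%, beside 0.603% of all windows. These 6 belonged to 4 genes, Hspd1, Hspe1, Hsph1 and Dnajb6, whose log2 differences were -0.80, -0.04, 0.71 and 0.40. The differences of these 4 genes lay on both sides of 0, and a link between the element and the difference was not tested. The core of the antioxidant response element, TGACNNNGC, was found on either strand in 9 windows, or 17.3%, beside 12.4% of all windows. It lay in windows of Bag1, Cct2, Dnaja2, Dnajb1, Dnajb2, Hsph1 and Tcp1, with differences from -1.59 for Dnajb2 to 1.26 for Dnajb1. The cAMP response element, TGACGTCA, lay in 1 member window, that of Trap1, or 1.92%, beside 1.79% of all windows. A match describes the letters and shows no binding.

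The HSP70 genes went both ways, with 2 of the 5 detected past the rule on the higher side and 2 on the lower. Of all detected genes 17.0% were higher and 23.6% lower, and 5 genes are too few to be set apart from these shares. The HSP70 median of 0.44 has no stable sign. It is the value of Hspa1b, which reached the floor on the NRF3 array alone. Over the genes that reached the floor on both arrays the median was -0.12. Hspa13, a microsomal HSP70 relative, read 10.85 with GFP and 11.70 with NRF3, a difference of 0.85. Hspa14, which works at the ribosome on new chains, went the other way, from 11.94 to 11.01, or -0.93. Both genes read well above the control rows on each array. Hspa2, an HSP70 best known from the testis, read 7.90 and 6.74, a difference of -1.16, and its NRF3 value lay under the upper quartile of the control rows. The stress-inducible HSP70 genes were dim on both arrays. Hspa1a read 6.08 and 6.76, a difference of 0.68, and Hspa1b 5.55 and 5.98, a difference of 0.44. Their GFP values lay under the control row median of 6.12, so neither gene is shown to be expressed and the size of both differences depends on background.

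Hspa1a and Hspa1b are neighbouring, near-identical genes on chromosome 17, and reads of 1 by the probes of the other were not tested. Their promoter windows are shown to make this likeness visible, with the 2-unit heat shock element in capitals, at chr17:34972127-34972406 and chr17:34959209-34959488 (both on the minus strand). Over all 300 bases of each window 296 were identical. The differences, counted from the 5′ end with the Hspa1a base first, were C44T, T47C, T249G and C276T. The element itself starts 104 bases before the start in both genes.
Hspa1a: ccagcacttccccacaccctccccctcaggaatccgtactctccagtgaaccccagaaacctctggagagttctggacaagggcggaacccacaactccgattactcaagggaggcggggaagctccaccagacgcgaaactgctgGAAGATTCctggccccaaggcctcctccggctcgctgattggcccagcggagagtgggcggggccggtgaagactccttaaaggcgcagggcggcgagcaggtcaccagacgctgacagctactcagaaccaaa
Hspa1b: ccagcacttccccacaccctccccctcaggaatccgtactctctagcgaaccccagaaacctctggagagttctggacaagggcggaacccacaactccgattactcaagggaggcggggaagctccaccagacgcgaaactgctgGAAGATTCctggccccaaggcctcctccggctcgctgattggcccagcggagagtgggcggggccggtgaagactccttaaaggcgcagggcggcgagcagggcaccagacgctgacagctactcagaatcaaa

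All 3 HSP110 genes, the nucleotide exchange partners of HSP70, had higher values in the NRF3 cells, 2 of them by at least 1.5-fold. By this rule 17.0% of all detected genes were higher, and 3 genes are too few to be set apart from that share. Hspa4l read 7.46 with GFP and 8.52 with NRF3, a difference of 1.06 or 2.08-fold. Its GFP value lay just under the upper quartile of the control rows. Hsph1 read 11.23 and 11.93, a difference of 0.71 or 1.63-fold. Hspa4 read 13.93 and 14.34, a difference of 0.41 that misses the rule. The HSP110 median was 0.71. The neighbours of Hspa4l and Hsph1 on their chromosomes were higher as well, with medians of 0.32 and 0.37 over the 25 detected genes on either side. With these subtracted Hsph1 lay at 0.34, under the rule, Hspa4l at 0.74 and the class median at 0.58, just under the rule.

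The Hsph1 promoter window at chr5:149636286-149636565 (minus strand) is shown because it holds both kinds of motif. It belongs to 1 of its 2 annotated starts. Capitals mark, in order, an antioxidant core match 153 bases before the start and another 117 before it, a 2-unit heat shock element 54 before it, and a 3-unit element that begins at base 16 of the transcript.
Hsph1: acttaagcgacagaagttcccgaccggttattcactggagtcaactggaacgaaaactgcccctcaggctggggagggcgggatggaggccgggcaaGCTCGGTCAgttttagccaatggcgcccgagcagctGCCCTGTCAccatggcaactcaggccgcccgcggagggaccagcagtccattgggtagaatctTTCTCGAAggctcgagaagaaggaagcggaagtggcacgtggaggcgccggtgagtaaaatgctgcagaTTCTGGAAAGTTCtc

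The measured genes of the cytosolic HSP90 class, Hsp90aa1 and the cochaperone gene Stip1, differed little. Trap1, the mitochondrial HSP90, is described below with the mitochondrial genes and lay at -0.78. Hsp90aa1, the inducible cytosolic HSP90, read 15.88 with GFP and 16.02 with NRF3, a difference of 0.14. Stip1, also called HOP, which passes clients from HSP70 to HSP90, read 14.60 and 14.34, a difference of -0.26. Hsf2, a heat shock factor, read 9.33 and 9.56, a difference of 0.22. With 1 array each, these values do not show equal expression.

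The J-domain genes held both the highest difference of the set and its second lowest. Dnajb1, the main HSP40 partner of HSP70, read 8.88 with GFP and 10.14 with NRF3, a difference of 1.26 or 2.39-fold. Dnaja2, another cytosolic HSP40, read 8.96 and 10.15, a difference of 1.19 or 2.28-fold. Dnajb2, a J-domain protein with ubiquitin-binding motifs that is best known from neurons, read 9.80 and 8.21, a difference of -1.59 or 3.02-fold lower. All 3 read above the upper quartiles of the control rows on both arrays. Dnajb4 at 0.45 and Dnajb6, a suppressor of aggregation, at 0.40 were higher without reaching the rule. Dnajb4 read 8.73 and 9.18, and Dnajb6 read 12.56 and 12.96. Dnajc5, the cysteine string protein of secretory vesicles, at -0.07, Dnajc7, a link between HSP70 and HSP90, at -0.11 and Dnaja4 at -0.09 differed least. Dnaja4 read 6.23 and 6.14, its NRF3 value being under the control row median of 6.37. The class median was 0.16.

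The J-domain genes past the rule lie on chromosomes with shifted medians, though the shift was not even along chromosome 8. Dnajb1 and Dnaja2 lie on chromosome 8, where 549 detected genes had a median of 0.56 and 47.5% were at least 1.5-fold higher. Dnajb2 lies on chromosome 1, where 552 detected genes had a median of -0.51 and 44.2% were at least 1.5-fold lower. Around Dnajb1 itself the neighbour median was 0.11, and Dnajb1 lay 1.14 above it. Around Dnaja2 it was 0.75, and Dnaja2 lay 0.44 above it, under the rule. Dnajb2 lay 1.27 below a neighbour median of -0.32. The part of these regional shifts in the differences was not tested beyond this subtraction.

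The promoter windows of Dnajb1 at chr8:83607925-83608204 (plus strand) and Dnaja2 at chr8:85555332-85555611 (minus strand) are shown because these genes had the highest differences of the set. Neither window holds a heat shock element by the letters searched. Capitals mark the antioxidant core, read on the opposite strand, 15 bases before the start in Dnajb1 and 33 and 15 before it in Dnaja2. Dnajb2, the J-domain gene with the lowest difference, also holds core matches.
Dnajb1: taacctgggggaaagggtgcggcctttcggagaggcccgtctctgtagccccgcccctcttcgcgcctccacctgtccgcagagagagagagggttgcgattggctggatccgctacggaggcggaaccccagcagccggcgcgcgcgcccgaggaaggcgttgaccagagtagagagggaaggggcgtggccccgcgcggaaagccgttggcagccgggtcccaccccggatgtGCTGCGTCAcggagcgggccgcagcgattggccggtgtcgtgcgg
Dnaja2: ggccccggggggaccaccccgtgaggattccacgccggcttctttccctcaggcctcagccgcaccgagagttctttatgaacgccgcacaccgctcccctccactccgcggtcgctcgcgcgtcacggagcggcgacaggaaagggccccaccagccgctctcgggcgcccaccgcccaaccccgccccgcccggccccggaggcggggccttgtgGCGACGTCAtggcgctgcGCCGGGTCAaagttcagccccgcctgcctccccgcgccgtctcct

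**Figure D2:**
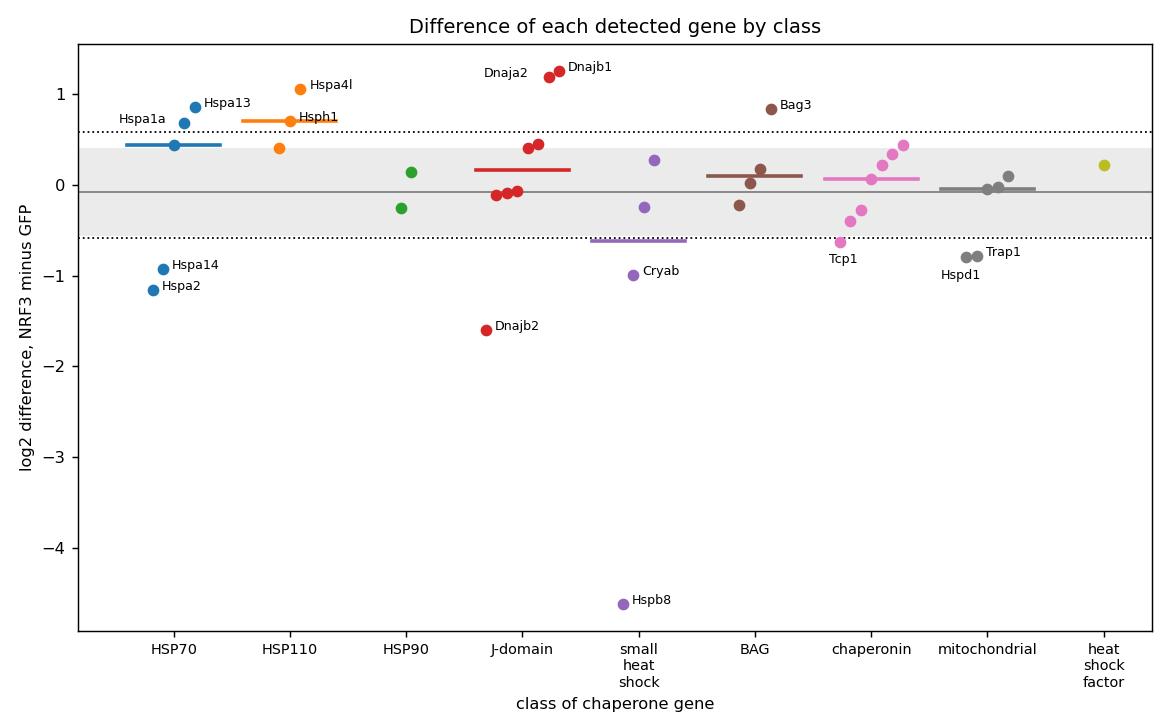
Log2 difference, NRF3 minus GFP (vertical axis), of the 39 detected genes by class, with class medians as short bars where at least 3 genes were detected. The dotted lines mark 1.5-fold either way, the grey band the quartiles of all detected genes, -0.55 and 0.39, and the thin line their median of -0.07; the 15 genes past 1.5-fold are named.

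Of 4 detected small heat shock genes, Hspb8 and Cryab were lower by the rule and the others lay within it. Among all detected genes 23.6% were lower, and 4 genes are too few to be set apart from that share. Hspb8, which holds misfolded protein for autophagy together with BAG3, read 9.50 with GFP and 4.88 with NRF3. Its difference of -4.61 was the largest of the set, and the NRF3 value lay under the floor, so its size depends on background. Cryab, which encodes alpha B-crystallin, read 15.43 and 14.44, a difference of -0.99 or 1.99-fold lower, with both values far above the control rows. Hspb6 read 10.99 and 11.26, a difference of 0.27. Hspb11, which despite its name works in intraflagellar transport, read 7.66 and 7.41, a difference of -0.24, with an NRF3 value under the upper quartile of the control rows. Hspb1, encoding HSP25, the mouse counterpart of HSP27, read 4.42 and 5.41 and was not detected on either array. The class median of -0.62 over 4 genes rests on Hspb8, which reached the floor on the GFP array alone. Over the genes that reached it on both arrays the median was -0.24. With Hspb8 kept, it lay between -0.51 and -0.56, short of the rule, after each of the other scalings and after subtraction of neighbours, and at -0.24 when Hspb1 was counted.

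Of 4 BAG genes, which exchange the nucleotide of HSP70, only Bag3 passed the rule. Among all detected genes 17.0% were higher, and 4 genes are too few to be set apart from that share. Bag3, the stress-inducible member, read 8.63 with GFP and 9.47 with NRF3, a difference of 0.84 or 1.79-fold. Bag3 and Hspb8, whose products form a complex, thus lay on opposite sides. The genes around Bag3 had a median of 0.38, and Bag3 lay 0.45 above them, under the rule. Bag1 read 12.62 and 12.64, a difference of 0.02. Bag2, an inhibitor of the CHIP ubiquitin ligase, read 10.75 and 10.93, a difference of 0.18. Its neighbours on chromosome 1 had a median of -0.49. Bag5 read 11.77 and 11.55, a difference of -0.22, with neighbours at -0.52.

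The chaperonin TRiC folds actin and tubulin and is a ring of different subunits, of which 7 were measured. Of these 6 lay within 1.5-fold and 1, Tcp1, was lower, with a class median of 0.06. Among all detected genes 23.6% were lower, and 7 genes are too few to be set apart from that share. Tcp1 read 14.13 with GFP and 13.50 with NRF3, a difference of -0.63, which median centring takes to just inside 1.5-fold. The differences lay on both sides of 0, which with 1 array each does not show that the subunits changed apart. Cct4 at 0.43, Cct7 at 0.34, Cct3 at 0.22 and Cct8 at 0.06 lay above 0. Cct2 at -0.40 and Cct5 at -0.27 lay below it. With neighbours subtracted Cct5 lay at 0.03, Cct3 at 0.01 and Cct8 at 0.06. Under this subtraction Tcp1 and Cct2 were still below 0, at -0.56 and -0.28. Cct4 and Cct7 were still above it, at 0.42 and 0.59. Cct4 read 15.01 and 15.45, Cct7 10.30 and 10.64, Cct3 14.54 and 14.75, and Cct8 14.08 and 14.14. Cct2 read 16.36 and 15.96 and Cct5 15.75 and 15.48.

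Among the 5 mitochondrial chaperone genes, Hspd1 and Trap1 were lower by at least 1.5-fold, and the others lay within the rule. Of all detected genes 23.6% were lower by this rule, and so few members cannot be set apart from that share. Hspd1, the HSP60 chaperonin, read 15.55 with GFP and 14.75 with NRF3, a difference of -0.80 or 1.74-fold lower. Trap1, the mitochondrial HSP90, read 12.41 and 11.63, a difference of -0.78 or 1.72-fold lower. Hspa9, the mitochondrial HSP70 that pulls in imported proteins, read 13.49 and 13.46, a difference of -0.03. Its J-domain partner gene Dnaja3 read 9.96 and 10.06, a difference of 0.10. Hspe1, the HSP10 lid of HSP60, read 11.57 and 11.53, a difference of -0.04. The class median of -0.04 lay slightly above 0 after each of the other scalings.

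Hspd1 and Hspe1 lie head to head on chromosome 1 and share 1 promoter, yet their differences were -0.80 and -0.04. In RefSeq their starts lie 216 bases apart, and their promoter windows overlap over 285 bases. The Hspe1 window at chr1:55087898-55088177 (plus strand) is shown, with its overlapping heat shock elements, which begin 89 bases before the Hspe1 start, in capitals. The 3-unit matches counted above for Hspd1 and Hspe1 are therefore the same bases. Hspd1 has a further annotated start. The genes near Hspd1 had a median of -0.31 and those near Hspe1 of -0.42. Relative to these, Hspd1 lay at -0.48 and Hspe1 at 0.38. Whether the probe sets of the pair respond alike to the same change in RNA was not tested.
Hspe1: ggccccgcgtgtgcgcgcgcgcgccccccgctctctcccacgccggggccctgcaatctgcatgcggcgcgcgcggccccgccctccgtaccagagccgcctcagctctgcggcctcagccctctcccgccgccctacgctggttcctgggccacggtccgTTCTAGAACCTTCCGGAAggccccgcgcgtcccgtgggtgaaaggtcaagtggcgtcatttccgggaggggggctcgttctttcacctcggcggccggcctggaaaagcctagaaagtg

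Chromosomal position was examined for every detected member because of the shifts on chromosomes 1 and 8. The 2 members on chromosome 8 were both higher by the rule, beside 47.5% of all detected genes there. Of 4 members on chromosome 1, 2 were lower, Dnajb2 and Hspd1, beside 44.2% of all detected genes there. Hspe1 and Bag2 lay within the rule. So few members cannot be set apart from these shares. Of 33 members on the other chromosomes 5 were higher and 6 lower, or 15% and 18%. Over all chromosomes 17.0% of detected genes were higher and 23.6% lower. With the median of the neighbours subtracted, 7 members were past the rule on the higher side and 6 on the lower. These are 17.9% and 15.4% of the members, beside 17.9% and 19.3% of all detected genes under this subtraction. Hsph1, Dnaja2, Bag3, Tcp1 and Hspd1 no longer passed it, and Hspa1b, Bag2 and Cct7 newly did.

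**Figure D3:**
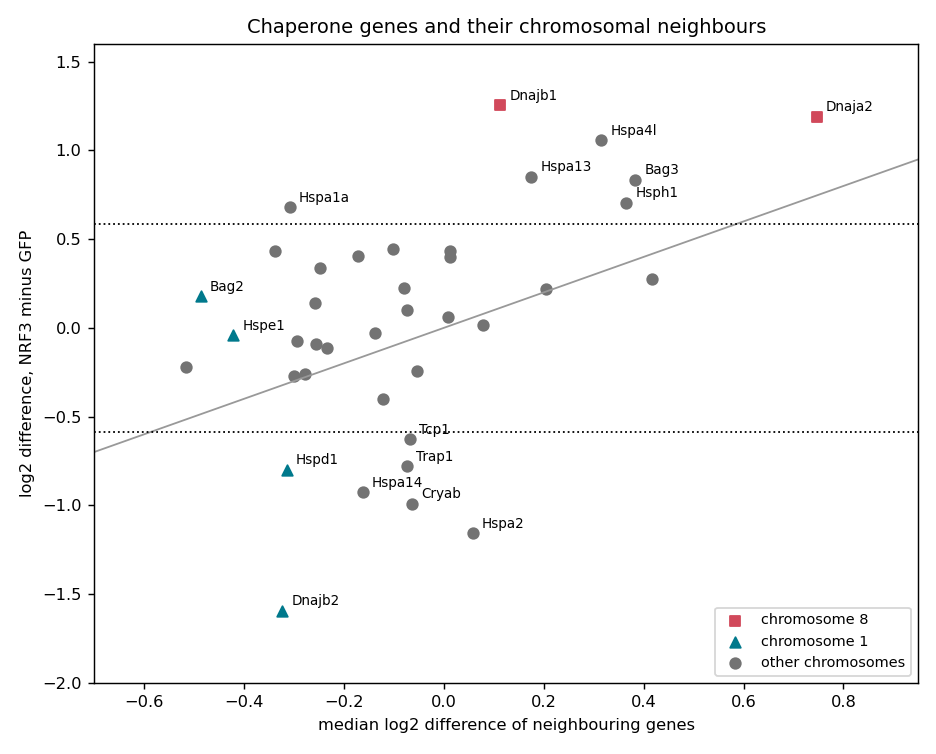
Log2 difference of each detected heat shock chaperone gene (vertical axis) against the median log2 difference of the 25 detected genes on either side of it (horizontal axis). Squares are chromosome 8, triangles chromosome 1 and circles the other chromosomes, the line marks equality and the dotted lines 1.5-fold; Hspb8, at -4.61 with neighbours at 0.12, lies outside the range drawn. Dnajb1 stands far above the line while Dnaja2 lies nearer to it.

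The size of a difference was read against the level at which it was measured. With a mean log2 value under 8, 4 of 7 members passed it, beside 42.6% of all detected genes there. Between 8 and 10 the count was 4 of 6, beside 41.4%, and between 10 and 12 it was 3 of 10, beside 40.5%. Between 12 and 14 it was 2 of 6, beside 37.9%, and between 14 and 16 it was 2 of 9, beside 35.6%. Cct2, with a mean of 16.16, did not pass it, beside 25.5% of genes from 16 up. The share of all genes past the rule was thus smaller at higher values, and small differences there do not show equal expression.

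**Figure D4:**
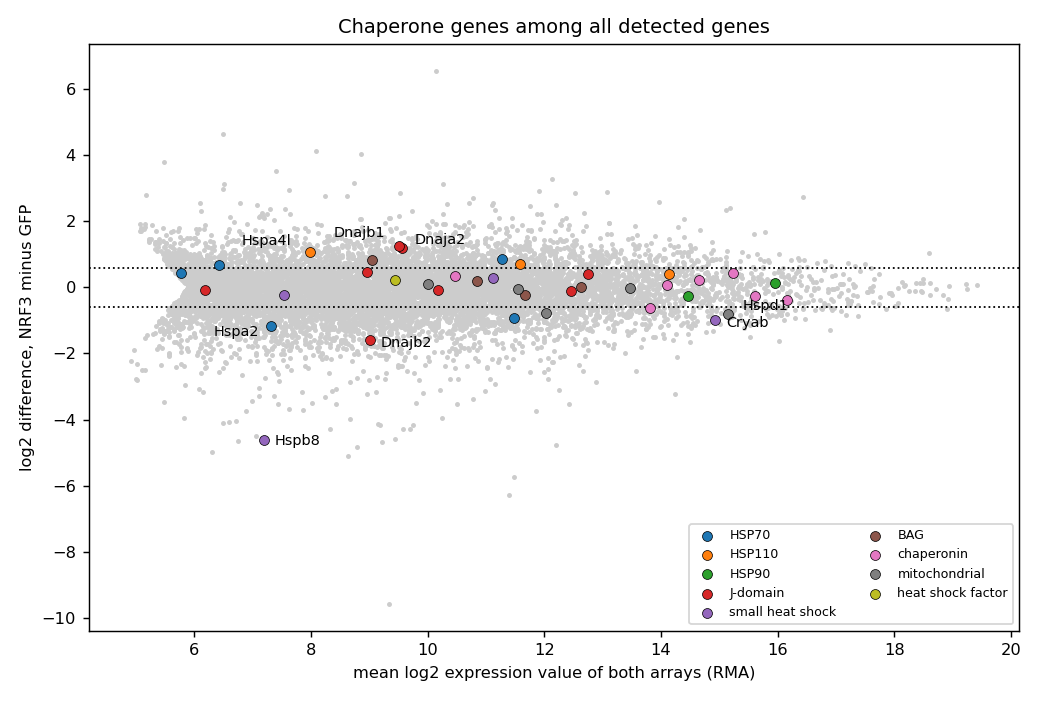
Log2 difference, NRF3 minus GFP (vertical axis), against the mean log2 value of both arrays (horizontal axis) for all 10162 detected genes in grey and the 39 detected heat shock chaperone genes in colour by class. The dotted lines mark 1.5-fold; Hspb8 at -4.61 stands far below the other members, which lie between -1.59 and 1.26.

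Other genes of the cytosolic and mitochondrial chaperone systems were read from 5 further lists, with 65 of 83 named genes detected. Their median was -0.06, with 8 past the 1.5-fold rule on the higher side and 11 on the lower. These are 12.3% and 16.9%, both under the 17.0% and 23.6% of all detected genes. Of 20 cochaperones of HSP90 and HSP70, 0 were higher and 4 lower, the latter being 20%, near the 23.6% of all detected genes. The 4 were Fkbp5, an immunophilin of steroid receptor complexes, at -0.97, the phosphatase gene Ppp5c at -0.94, Fkbp8, on chromosome 8, at -0.80 and Bag6 at -0.62, which with its neighbours subtracted lay at -0.31, under the rule. The highest was Ppid, a cyclophilin, at 0.37. Of 10 other J-domain genes 2 were higher, Gak, the auxilin of clathrin uncoating, at 0.92 and Dnajc2, of the ribosome, at 0.60, which lay at 0.44 with neighbours subtracted, under the rule. The 2 lower ones were Dnajc9, a histone chaperone, at -0.83 and Dnajc24 at -0.71. Either count is 20% of the list, beside 17.0% higher and 23.6% lower among all detected genes.

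Prefoldin hands unfolded actin and tubulin to the chaperonin, and 3 of its 6 measured genes were lower, beside 23.6% of all detected genes. This subgroup was picked from its list after the values were seen. Pfdn2 read 10.71 with GFP and 9.52 with NRF3, a difference of -1.19. Pfdn4 read 10.84 and 9.84, a difference of -1.01, and Pfdn1 10.44 and 9.68, a difference of -0.76. Pfdn5 at 0.15, Pfdn6 at -0.28 and Vbp1 at -0.29 lay within the rule. With their neighbours subtracted, Pfdn2, on chromosome 1, lay at -0.63, Pfdn4 at -0.64 and Pfdn1 at -0.67, all still past the rule. The tubulin cofactor genes Tbcb and Tbce lay at 0.73 and -0.70, and at 0.42 and -0.61 with neighbours subtracted, so that Tbcb lost its place past the rule. The list of 13 chaperonin, prefoldin and cofactor genes had 1 higher and 4 lower members and a median of -0.28. These counts are 7.69% and 30.8%, beside 17.0% and 23.6% of all detected genes.

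The 19 other mitochondrial chaperone, import and protease genes had a median of -0.06, with 3 past the rule on the higher side and 1 on the lower. These are 15.8% and 5.26%, beside 17.0% and 23.6% of all detected genes. Tomm20, the import receptor of the outer membrane, was higher by 1.01 and Timm44, which tethers mitochondrial HSP70 to the import channel, by 0.74. Both lie on chromosome 8. The iron-sulfur cochaperone gene Hscb was higher by 0.68, with values of 6.84 and 7.52 under the upper quartiles of the control rows. With neighbours subtracted all 3 lay under the rule, Tomm20 at 0.38, Timm44 at 0.27 and Hscb at 0.40. Afg3l2, a protease of the inner membrane, was lower, at -0.79. Only 3 other small heat shock and heat shock factor genes were detected. Hsbp1, which binds heat shock factor 1 and restrains it, read 9.43 with GFP and 12.11 with NRF3, a difference of 2.69 or 6.43-fold. Hsf4 read 8.20 and 9.45, a difference of 1.24, and Hspb2 lay at -0.08. Hsbp1 and Hsf4 lie on chromosome 8, with neighbour medians of 0.78 and 0.56, and Hsbp1 lay 1.90 above its neighbours and Hsf4 0.68 above its own.

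Chaperones of the endoplasmic reticulum (ER) were set beside these genes as the corresponding proteins of another compartment. Their 18 detected genes had a median of 0.74, against 0.06 for the heat shock chaperones. Past the rule were 10 on the higher side and 1 on the lower, against 7 and 8 of 39. Sec61b, on this ER list at 0.88 and counted as higher, belongs to the translocation channel and is no chaperone gene. The ER counts are 55.6% and 5.56%, beside 17.0% and 23.6% of all detected genes. Hyou1, the HSP110 of the ER, was higher by 1.81, the J-domain gene Dnajb9 by 1.47 and Sdf2l1 by 1.35. Ppib was higher by 1.22, Calr, on chromosome 8, by 1.03 and Creld2 by 1.03. With neighbours subtracted Calr lay at 0.46, under the rule, while the count of ER genes past it was again 10 higher and 1 lower. Under this subtraction 17.9% of all detected genes were higher and 19.3% lower. The gene Sil1, a nucleotide exchange factor, lay at -0.78. Hspa5, the HSP70 of the ER, read 17.17 and 17.67, a difference of 0.50. Hsp90b1, the HSP90 of the ER, differed by 0.16. With 1 array per group the difference between the groups of chaperones has no test.

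**Figure D5:**
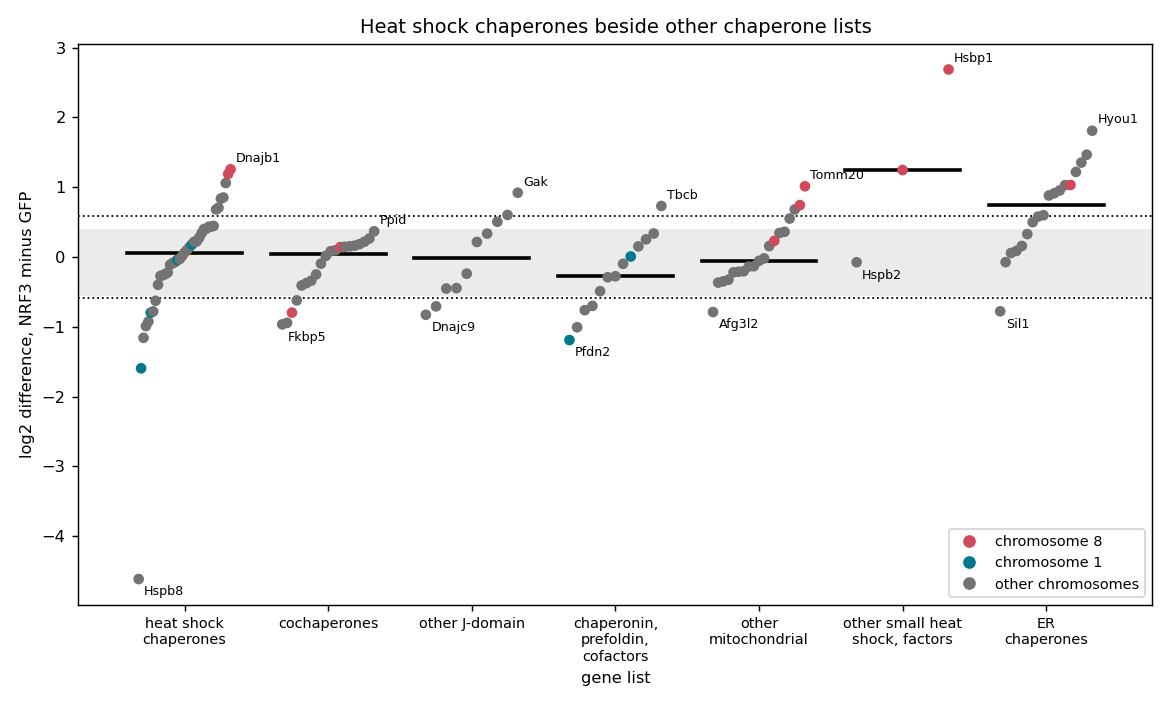
Log2 difference, NRF3 minus GFP (vertical axis), of the detected genes of the heat shock chaperone set and of 6 other chaperone lists, with medians as black bars. Colours mark chromosomes 8 and 1, the dotted lines 1.5-fold and the grey band the quartiles of all detected genes, -0.55 and 0.39; the ER list has its median at 0.74 and the heat shock set at 0.06.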

How the data were processed

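Total RNA of 2 samples, 1 per group, was labelled from 100 ng and hybridised to 1 array each, per the labels' protocols. The authors deposited 1 log2 value for each probe set, and the submitters' processing notes name Affymetrix Expression Console and RMA. The versions, the settings and the annotation build used upstream were not given in the sources used here. Values above 16 (288 rows on the GFP array, 279 on the NRF3 array) exceed a 16-bit scanner's log2 range, so folds are folds on the deposited scale. Array data have no read depth, and the number of arrays limits the precision.

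Probe sets were named through the platform annotation, which gave 19572 of them 1 gene symbol. The brightest probe set was kept per gene. Differences, counts, medians and neighbour medians (25 detected genes on either side, ordered by a RefSeq table of GRCm38.p6) were computed in Python 3.11.15 with pandas 2.3.3, and a lowess trend (span 0.3) with statsmodels 0.14.6. The counting was checked on data with known answers. No test was possible. Every measured member is named, as are the highest and lowest gene of each other list and those at least 2-fold apart. Other genes of these lists were named after their values were seen. The members, lists and rules were chosen with earlier results of these data known. Alternatives were other scalings, floors, probe set rules and folds, and neighbour subtraction. Sequences are from RefSeq, build GRCm38.p6. Protein sequences were not used.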

Additional observations from a re-analysis of the deposited data

How the results depend on the processing

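With 1 array per group no replicate could be left out, and no spread between cultures is known. Of the 15 heat shock chaperone genes past 1.5-fold, 10 kept their direction and their side of the 1.5-fold rule under each scaling, floor and neighbour setting that gave a value: Cryab, Dnajb1, Dnajb2, Hspa13, Hspa14, Hspa1a, Hspa2, Hspa4l, Hspb8 and Trap1. Bag3, Dnaja2, Hspd1 and Hsph1 fell short of it when neighbours were subtracted, and Tcp1 did so then and after median centring. Of the 10, Hspa1a, Hspa2, Hspa4l and Hspb8 lay under the floor at the 75th percentile, so that setting did not check them. Hspb8 also gave no value where both arrays had to reach the main floor. No gene past the rule changed sign. Quantile normalization put Dnajb4 past it, and each alternative scaling turned the sign of Dnajc5, Hspa9 and Hspe1, which lay near 0. With the floor at the 75th percentile, which leaves 30 members, 4 were higher and 6 lower. Of all genes at that floor 17.8% were higher and 24.1% lower. At 2-fold, 3 members were higher and 3 lower, or 7.69% each, beside 6.75% and 11.0% of all detected genes. The mean over the members was -0.076 against a median of 0.06.

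Quantile normalization moved the median of all genes by 0.10. With genes counted only where both arrays reached the floor, an alternative chosen after seeing the data, 7 members were higher and 7 lower. Of all genes counted in this way 15.7% were higher and 22.5% lower. Under this alternative the HSP70 median was -0.12 and the small heat shock median -0.24. The HSP70 median was -0.037 at the higher floor, 0.68 with neighbours subtracted and -0.023 as a mean. That of HSP110 was 0.56 and 0.58 under the first pair of these settings. That of the small heat shock genes was -0.54 after median centring, -0.51 after quantile normalization, -0.53 after trend subtraction, -0.36 at the higher floor, -0.24 with no floor and -0.56 with neighbours subtracted. The chaperonin mean was -0.035. The mitochondrial median was 0.033 after median centring, 0.0096 after quantile normalization, 0.0034 after trend subtraction and 0.11 with neighbours subtracted. The median of the other chaperone genes was 0.018, 0.048, 0.0096 and 0.018 under these same settings. Of those genes 5 were higher at the higher floor and 4 with neighbours subtracted, and of the ER genes 0 were lower at the higher floor. The causes were not tested, except where fewer genes were counted. No paired analysis was possible because each group had 1 array.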

Other observations

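Cryab and Hspb2, small heat shock genes that are neighbours on chromosome 9, gave different values. Cryab differed by -0.99 between the NRF3 and GFP arrays, and Hspb2, at 9.85 with GFP and 9.77 with NRF3, by -0.08. The median of the detected genes around Cryab was -0.06.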
